A study of Mus musculus with 4 samples.

Results

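Superoxide dismutases and peroxidases are the enzymes that remove superoxide and peroxides from cells, and 9 genes of this system were followed in mouse macrophages: Sod1, Sod2, Cat, Gpx1, Gpx4, Prdx1, Prdx5, Prdx6 and the peroxidase electron donor Txn1. They were found by symbol in the GENCODE M21 mouse annotation, through the Ensembl gene IDs of the count files. All 9 were among the 52550 gene IDs listed, and all 9 passed the filter on low values (at least 1 CPM, which is 1 count in 1000000, in at least 2 libraries), which left 12730 genes for testing.

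The cells were bone marrow-derived macrophages, which are grown from marrow progenitors in culture, from C57BL/6 mice aged 8 to 10 weeks. The mice were wild type or carried a deficiency of miR-7, a microRNA that lowers the output of mRNAs matching its seed. Within each genotype, cells stayed unstimulated or received 100 ng/mL lipopolysaccharide (LPS, the bacterial cell wall component sensed by Toll-like receptor 4) for 12 h, and poly(A)-enriched RNA was sequenced. That gave 4 groups with 1 library each, an unstimulated and an LPS one per genotype (the deficient group is called deficient below). How the deficiency was made, whether it spares any cells, the sex of the mice and whether marrow was pooled are not stated in the labels.

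Superoxide dismutases convert superoxide, made by the phagocyte NADPH oxidase and by mitochondria, into hydrogen peroxide. Catalase in peroxisomes, glutathione peroxidases and peroxiredoxins then reduce hydrogen peroxide and, in part, lipid peroxides. Glutathione peroxidases draw electrons from glutathione, most peroxiredoxins from thioredoxin, and both chains are recharged by NADPH. In macrophages the system meets the oxidant burst that follows microbial signals, and several of its genes are known targets of the transcription factors NF-kB and NRF2.

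Total counts were 33937823 to 42074624 per library, and 18156 to 18613 gene IDs had a count. All 8 macrophage markers reached at least 1 CPM in every library. Their summed level was 22130 and 22710 CPM in the unstimulated wild-type and deficient libraries, and 12520 and 14210 CPM with LPS. Most of that sum was Lyz2 (17670 and 18590 CPM unstimulated, 8664 and 10310 CPM with LPS), and the markers did not share a direction: Adgre1 was at 429 and 387 CPM unstimulated and 922 and 902 CPM with LPS, and Fcgr1 was also higher with LPS in both genotypes. The unstimulated libraries also differed in single markers. Itgam was at 965 CPM in the wild-type and 291 CPM in the deficient one, and Fcgr1 at 52.65 and 23.8 CPM. Cd68 went the other way, at 606.5 and 844 CPM. Itgam shares 3450 exonic bases with another gene on the same strand, Gm49368. That gene went the other way, with 24298 counts in the wild-type and 34974 in the deficient unstimulated library. Whether reads were divided differently between them was not tested. The part of the marker differences in the results below was not tested. Summed neutrophil markers were at 5.07 to 11.0 CPM and dendritic cell markers at 12.4 to 33.8 CPM. The B cell markers summed to 0.121 to 10.1 CPM and the mast cell and basophil markers to 0.153 to 7.36 CPM. T and NK cell markers summed to 0.121 to 0.898 CPM, erythroid markers to at most 2.38 CPM and stromal markers to 1.32 to 3.04 CPM. At least 1 CPM was reached by 1 or 2 of the 8 neutrophil markers, 2 to 4 of the 6 dendritic cell markers and at most 1 marker of each other list. Ly6g, Elane, Flt3, Trac, Ncr1 and Mcpt4 were among the markers with 0 counts in all 4 libraries, but other markers of the same lists had counts. Clec9a, a dendritic cell marker, was at 23.1 and 29.8 CPM in the unstimulated wild-type and deficient libraries. The neutrophil marker S100a8 was at 4.41 to 8.73 CPM, and the mast cell marker Cpa3 reached 7.36 CPM in wild-type LPS cells. Nos2, which encodes the inducible nitric oxide synthase, stood at 93.0 CPM in the wild-type unstimulated library and 3.77 CPM in the deficient one, against 7873 and 2393 CPM with LPS. The part of this difference between unstimulated libraries in the results was not tested either. In bulk RNA, fewer cells of a type and less RNA per cell cannot be told apart.

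The 9 mRNAs went in opposite directions with LPS. Sod2, Prdx1, Prdx5, Prdx6 and Txn1 rose, Gpx1, Gpx4 and Sod1 fell, and Cat did not pass the test. These calls come from an additive model of genotype and LPS fitted to all 4 libraries (edgeR quasi-likelihood test, Benjamini-Hochberg adjustment over 12730 genes, called under 0.05), in which the genotypes stand in as replicates of the LPS contrast. Over all genes tested, 34.3% were called, 18% higher and 16.3% lower with LPS. The median fitted log2 LPS effect was 1.47 over the 9 mRNAs and -0.04 over all genes tested. Levels below are CPM scaled by TMM, a factor per library that balances the bulk of genes.

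**Figure D1:**
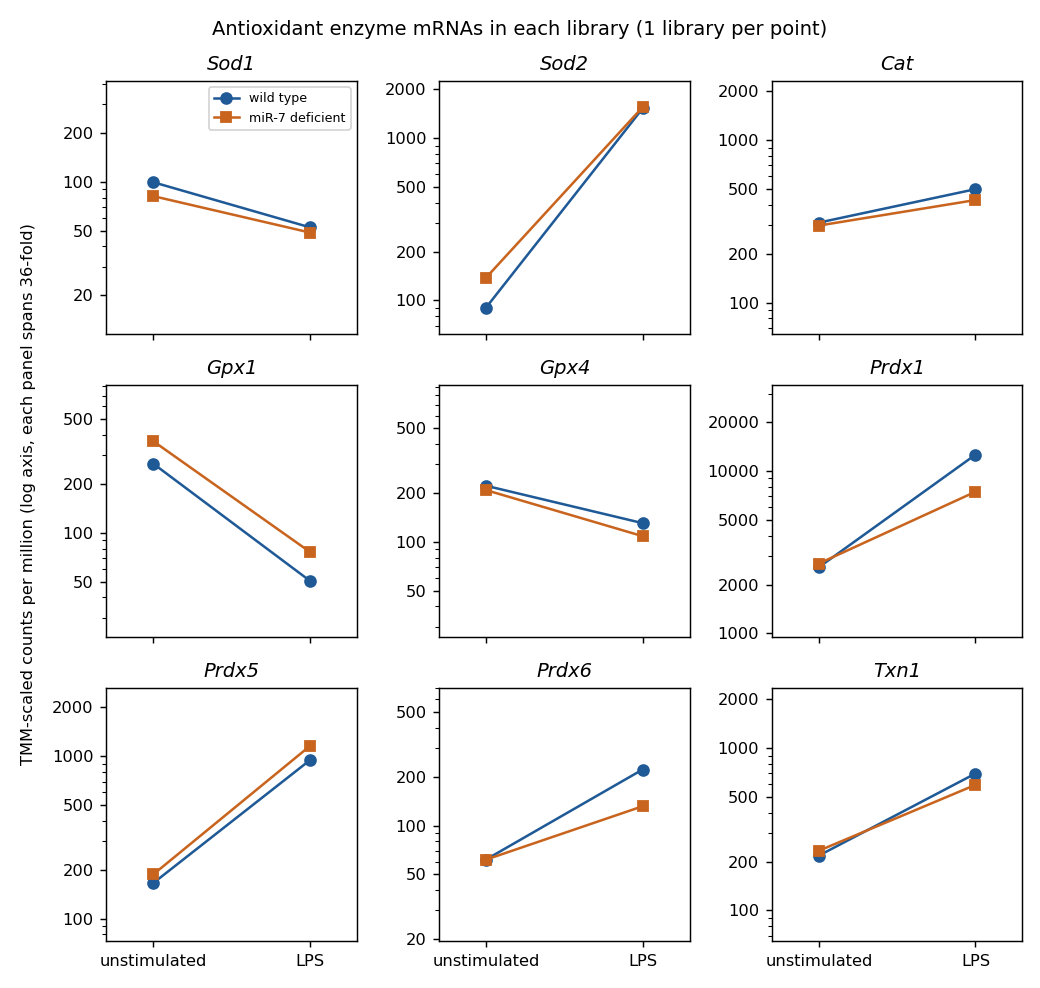
Scaled CPM (log axis, each panel spanning the same fold range) of the 9 mRNAs in the unstimulated and the LPS library of wild-type (circles) and miR-7 deficient (squares) macrophages, 1 library per point. Sod2 runs from 90.4 and 138 CPM up to 1525 and 1552 CPM, and Gpx1 from 267 and 367 CPM down to 50.7 and 76.3 CPM.

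Sod2 encodes the manganese superoxide dismutase of the mitochondrial matrix and lies on chromosome 17 (GRCm38, 13006846 to 13040063, plus strand). Its level was 90.4 CPM in wild-type unstimulated, 1525 CPM in wild-type LPS, 138 CPM in deficient unstimulated and 1552 CPM in deficient LPS macrophages. Both LPS libraries stood far above both unstimulated ones, and the LPS libraries of the 2 genotypes were close to each other. The fitted log2 LPS effect was 3.78 ± 0.25 (SE, n = 4 libraries; adjusted p = 0.000269, edgeR), the largest of the 9, and above that of 97% of tested genes.

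Sod1 encodes the copper-zinc superoxide dismutase of the cytosol, on chromosome 16 (90220754 to 90226329, plus strand), and moved the other way. It stood at 99.5 CPM in wild-type unstimulated and 52.5 CPM in wild-type LPS cells, and at 81.7 and 48.7 CPM in the deficient pair. Both LPS libraries were below both unstimulated ones. Sod1 fell by 0.83 ± 0.19 on the log2 scale in the fit (adjusted p = 0.0169, edgeR). That call was lost when any 1 of the libraries was left out, with adjusted p of 0.145 without wild-type unstimulated, 0.0627 without wild-type LPS, 0.0535 without deficient unstimulated and 0.0672 without deficient LPS.

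The starts of Sod2 and Sod1, as listed by RefSeq on GRCm38.p6, are shown with their motif matches. Each line gives the 200 bases before the start, 5′ to 3′, with matches to the NF-kB motif, to the antioxidant response element core TGACNNNGC (the NRF2 element) and to TATAAA in capitals.
Sod2, chr17:13007639-13007838 (+): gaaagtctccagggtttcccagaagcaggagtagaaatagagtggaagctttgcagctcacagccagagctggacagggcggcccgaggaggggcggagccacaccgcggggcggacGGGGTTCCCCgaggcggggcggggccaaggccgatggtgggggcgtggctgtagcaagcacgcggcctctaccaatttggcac
Sod1, chr16:90220562-90220761 (+): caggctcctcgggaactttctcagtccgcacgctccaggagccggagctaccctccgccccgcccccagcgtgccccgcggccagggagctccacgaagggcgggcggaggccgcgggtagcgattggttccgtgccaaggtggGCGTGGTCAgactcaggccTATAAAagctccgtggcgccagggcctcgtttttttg
The Sod2 capitals are 1 NF-kB match at -83 to -74 from the start, which reads as a match on both strands. The Sod1 capitals are 1 antioxidant response element core on the minus strand at -56 to -48, followed by a TATAAA at -37 to -32. Both promoters also hold 4 GC boxes (GGGCGG, left in lower case). An NF-kB match also stood before Gpx1, which fell, and an antioxidant response element core before Prdx1, which rose. The part of these motifs in the LPS response was not tested.

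The family has other members beyond this pair. Sod3, which encodes the secreted superoxide dismutase, had 0 counts in wild-type unstimulated cells, 3.56 CPM in wild-type LPS, 0.229 CPM in deficient unstimulated and 15.1 CPM in deficient LPS cells. It rose in the fit (adjusted p = 0.00111, edgeR), and in wild-type cells it was at least 55.5-fold higher with LPS, against a floor of 3 counts in the unstimulated library. That bound leaves out the counting error of its 118 LPS counts, and the lower end of the 95% counting interval was log2 5.47. Ccs, the chaperone that loads copper onto Sod1, was at 12.0 and 6.70 CPM in the wild-type pair and 14.1 and 9.72 CPM in the deficient pair, and did not pass the test (adjusted p = 0.0813, edgeR). Of the 4 genes of the family, 2 rose, 1 fell and 1 was not called.

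Cat encodes catalase, the peroxisomal enzyme that splits hydrogen peroxide without a separate electron donor (chromosome 2, 103453849 to 103485160, minus strand). Its level was 311 and 499 CPM in the wild-type pair and 298 and 428 CPM in the deficient pair. Both LPS libraries were higher, by 1.61-fold and 1.44-fold, but the fitted effect of 0.60 ± 0.19 on the log2 scale did not pass the threshold (adjusted p = 0.0533, edgeR). The Cat call depended on the processing. It passed with DESeq2 size factors (adjusted p = 0.0447), with a CPM filter of 10 or more (adjusted p = 0.0472), with DESeq2's Wald test (adjusted p = 0.00823) and with LPS alone in the model (adjusted p = 0.0498). It did not pass with no filter (adjusted p = 0.0768, edgeR) or with total counts (adjusted p = 0.411, edgeR), where the log2 effect was 0.19. With 1 library left out, the log2 effect of Cat was 0.49 to 0.71.

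Other peroxisomal genes were called in both directions. Of 16 listed, 15 were tested, 2 rose, 4 fell and 9 were not called, with a median fitted log2 LPS effect of -0.41. Of all genes tested, 18% rose and 16.3% fell, with a median of -0.04. Abcd2, a fatty acid transporter of the peroxisome membrane, fell from 25.8 to 1.93 CPM in the wild-type pair and from 15.3 to 1.76 CPM in the deficient pair (adjusted p = 0.000578, edgeR). Hsd17b4, the bifunctional enzyme of peroxisomal beta-oxidation, fell from 176 to 39.6 CPM and from 172 to 58.5 CPM. Acaa1a, the thiolase of that pathway, rose from 97.3 to 152 CPM and from 96.3 to 174 CPM, and shares 290 exonic bases with Myd88 on the other strand.

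Gpx1 encodes the abundant cytosolic glutathione peroxidase (chromosome 9, 108338903 to 108340343, plus strand). Its level was 267 CPM in wild-type unstimulated, 50.7 CPM in wild-type LPS, 367 CPM in deficient unstimulated and 76.3 CPM in deficient LPS cells. It was 5.27-fold lower with LPS in the wild-type pair and 4.81-fold lower in the deficient pair. In the fit Gpx1 fell by 2.33 ± 0.19 on the log2 scale (adjusted p = 0.000463, edgeR), and 4.71% of tested genes had a lower fitted LPS effect.

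Gpx4, the peroxidase that reduces lipid hydroperoxides in membranes and restrains ferroptosis (chromosome 10, 80047166 to 80056439, plus strand), was at 222 and 130 CPM in the wild-type pair and 208 and 108 CPM in the deficient pair. Both LPS libraries were below both unstimulated ones, by 1.70-fold and 1.92-fold. Gpx4 fell by 0.85 ± 0.18 on the log2 scale (adjusted p = 0.0146, edgeR). The call was lost without the wild-type unstimulated library (adjusted p = 0.112), without deficient unstimulated (adjusted p = 0.0779) and without deficient LPS (adjusted p = 0.0603). The processed pseudogene Gpx4-ps2 matched 99.6% of 512 aligned bases of the Gpx4 coding sequence and held counts equal to at most 1.28% of those of Gpx4, so reads of the pair may be split between them.

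Gpx1 and Gpx4 are selenoproteins: an in-frame TGA codon, which would otherwise end translation, is read as selenocysteine at the active site. The windows below come from the longest GENCODE M21 coding sequence of each gene and show that codon in capitals with 15 bases on each side. Gpx3, the secreted plasma form, is added because it was the only other glutathione peroxidase tested.
Gpx1, codon 47: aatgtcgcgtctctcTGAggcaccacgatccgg
Gpx4, codon 129: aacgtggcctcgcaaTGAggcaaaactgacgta
Gpx3, codon 73: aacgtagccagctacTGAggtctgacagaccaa
The annotation marks these codons as selenocysteine, at chr9:108339451-108339453 for Gpx1 and chr10:80054737-80054739 for Gpx4. The coding sequences of Sod1, Sod2, Cat, Prdx1, Prdx5, Prdx6 and Txn1 held 0 in-frame TGA codons before the stop.

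Gpx3 also fell, from 106 to 42.4 CPM in the wild-type pair and from 120 to 25.6 CPM in the deficient pair (log2 -1.77 ± 0.27, adjusted p = 0.00403, edgeR). All 3 tested glutathione peroxidases of 8 listed thus fell. Of the 5 that were not tested, Gpx2, Gpx5 and Gpx6 had 0 counts in every library, Gpx7 had 5 to 21 counts and Gpx8 at most 3. Beside them, of the 12 other listed selenoproteins 1 rose, 3 fell and 8 were not called, where 18% of all genes tested rose and 16.3% fell. Selenop, the secreted selenium carrier, fell from 352 to 61.4 CPM and from 385 to 80.0 CPM (adjusted p = 0.000486, edgeR). Selenow rose from 24.2 to 130 CPM and from 18.8 to 167 CPM (adjusted p = 0.000598, edgeR). Selenot, a selenoprotein of the endoplasmic reticulum, stood at 177 and 243 CPM in the wild-type pair and 232 and 268 CPM in the deficient pair, and was not called.

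A wider list, taken from the annotation after the values had been seen, held all 24 genes with an annotated selenocysteine codon. Of the 20 tested, 3 rose, 7 fell and 10 were not called, with a median fitted log2 LPS effect of -0.42. The 3 that rose were Txnrd1, Selenow and Sephs2, and the 7 that fell were Gpx1, Gpx3, Gpx4, Selenop, Selenoh, Selenon and Dio2. Of the 7 genes for selenocysteine synthesis and insertion, 1 rose and 6 were not called. Beside both counts, 18% of all genes tested rose and 16.3% fell. Sephs2, which makes the selenium donor and is itself a selenoprotein, rose from 57.6 to 96.2 CPM and from 64.1 to 127 CPM, and shares 792 exonic bases with an unnamed transcript on the other strand. Scly, which frees selenium from selenocysteine, was at 59.0 and 37.6 CPM in the wild-type pair and 46.3 and 40.9 CPM in the deficient pair. Trnau1ap, which binds the selenocysteine tRNA, was at 13.5 and 9.17 CPM and at 13.7 and 8.33 CPM.

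Prdx1 encodes the main cytosolic peroxiredoxin (chromosome 4, 116685544 to 116700822, plus strand). Its level was 2555 CPM in wild-type unstimulated, 12609 CPM in wild-type LPS, 2693 CPM in deficient unstimulated and 7454 CPM in deficient LPS cells. The unstimulated libraries were close to each other, and both LPS libraries were higher, the wild-type one most. Prdx1 alone took 0.293% of all counts in wild-type unstimulated and 1.07% in wild-type LPS cells, and 0.311% and 0.664% in the deficient pair. The fitted log2 LPS effect was 1.89 ± 0.27 (adjusted p = 0.00352, edgeR). The call was lost with DESeq2's Wald test (log2 1.92, adjusted p = 0.181) and without the wild-type unstimulated library (adjusted p = 0.0602). The processed pseudogenes of Prdx1 held counts equal to at most 0.0558% of its own.

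The RefSeq promoter of Prdx1 is shown because it holds matches to both inflammatory and antioxidant motifs, in capitals as above.
Prdx1, chr4:116685399-116685598 (+): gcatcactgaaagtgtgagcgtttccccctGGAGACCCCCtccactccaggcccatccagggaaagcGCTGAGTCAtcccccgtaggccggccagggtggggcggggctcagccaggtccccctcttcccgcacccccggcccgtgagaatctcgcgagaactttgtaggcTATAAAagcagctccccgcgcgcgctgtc
In order, the capitals are an NF-kB match on the minus strand at -170 to -161, an antioxidant response element core on the minus strand at -133 to -125 and a TATAAA at -29 to -24.

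Prdx5 encodes the peroxiredoxin of mitochondria, peroxisomes and cytosol (chromosome 19, 6906697 to 6910106, minus strand). It was at 166 CPM in wild-type unstimulated, 947 CPM in wild-type LPS, 187 CPM in deficient unstimulated and 1158 CPM in deficient LPS cells. The rise was 5.71-fold in the wild-type pair and 6.18-fold in the deficient pair, the most even of the 5 that rose. The fitted log2 effect was 2.57 ± 0.20 (adjusted p = 0.000437, edgeR). Prdx5 shares 409 exonic bases with Trmt112 on the other strand, which had 686 to 1253 counts against 7350 to 43360 for Prdx5, and the strand setting of the counting is not stated in the labels.

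Prdx6, a peroxiredoxin that also has phospholipase A2 activity and reduces phospholipid peroxides with glutathione (chromosome 1, 161240112 to 161251219, minus strand), was at 61.8 and 222 CPM in the wild-type pair and 61.7 and 132 CPM in the deficient pair. The unstimulated levels were equal within counting error, and both LPS libraries were higher, by 3.58-fold and 2.13-fold. The fitted log2 effect was 1.47 ± 0.24 (adjusted p = 0.00543, edgeR). Its call was lost without the wild-type unstimulated library (adjusted p = 0.0878) and without deficient unstimulated (adjusted p = 0.0833). The near copy Prdx6b, with 92.9% identity, had 0 counts in every library.

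Of 7 listed peroxiredoxin genes, 6 were tested, 4 rose and 2 were not called. Besides the 3 above, Prdx2 rose from 115 to 173 CPM and from 69.5 to 125 CPM (adjusted p = 0.0282, edgeR), and it shares exonic bases with Junb and Rnaseh2a on the other strand. The mitochondrial Prdx3 was at 40.8 and 36.1 CPM in the wild-type pair and 40.8 and 29.9 CPM in the deficient pair. The endoplasmic reticulum form Prdx4 was at 64.6 and 90.2 CPM and at 65.7 and 69.5 CPM. Neither of these passed the test.

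Txn1 encodes thioredoxin, which returns oxidized peroxiredoxins to their reduced form (chromosome 4, 57943373 to 57956411, minus strand). It was at 218 and 697 CPM in the wild-type pair and 233 and 594 CPM in the deficient pair. Both LPS libraries were higher, by 3.20-fold and 2.55-fold. The fitted log2 effect was 1.51 ± 0.20 (adjusted p = 0.00265, edgeR). Of the 9 listed genes of the thioredoxin system, 4 rose, 1 fell and 4 were not called.

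Among the partners of Txn1 and Prdx1, Txnrd1 and Srxn1 rose and Txnip fell. Txnrd1, the cytosolic selenoenzyme that recharges thioredoxin, rose from 270 to 1309 CPM in the wild-type pair and from 307 to 852 CPM in the deficient pair (adjusted p = 0.00301, edgeR). Srxn1, the sulfiredoxin that repairs overoxidized peroxiredoxins, rose from 296 to 1576 CPM and from 446 to 1162 CPM (adjusted p = 0.00471, edgeR). Txnip, the inhibitor that binds thioredoxin, fell from 477 to 67.4 CPM and from 309 to 135 CPM (adjusted p = 0.0113, edgeR), and shares 606 exonic bases with an antisense transcript. The mitochondrial forms Txn2 and Txnrd2 were not called. Txn2 was at 40.5 and 39.4 CPM in the wild-type pair and 39.7 and 18.3 CPM in the deficient pair.

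Taken pair by pair, with no replicate, 5 of the 9 mRNAs were more than 2-fold higher and 1 was more than 2-fold lower with LPS in each genotype. Here a gene counts as called where the whole 95% interval of its ratio, which covers counting error only, lies beyond 2-fold. Over all genes tested, 14.8% were called higher and 13.3% lower in the wild-type pair, and 12.5% higher and 11.8% lower in the deficient pair. The 5 were Sod2, Prdx1, Prdx5, Prdx6 and Txn1 in both genotypes, and the 1 was Gpx1. Scaling by total counts instead of TMM shifts the median log2 ratio of all genes by -0.44 in the wild-type pair and -0.38 in the deficient pair. Under it, Sod1 and Gpx4 also passed the 2-fold limit downward in both genotypes, and Prdx6 and Txn1 no longer passed it upward in the deficient pair.

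**Figure D2:**
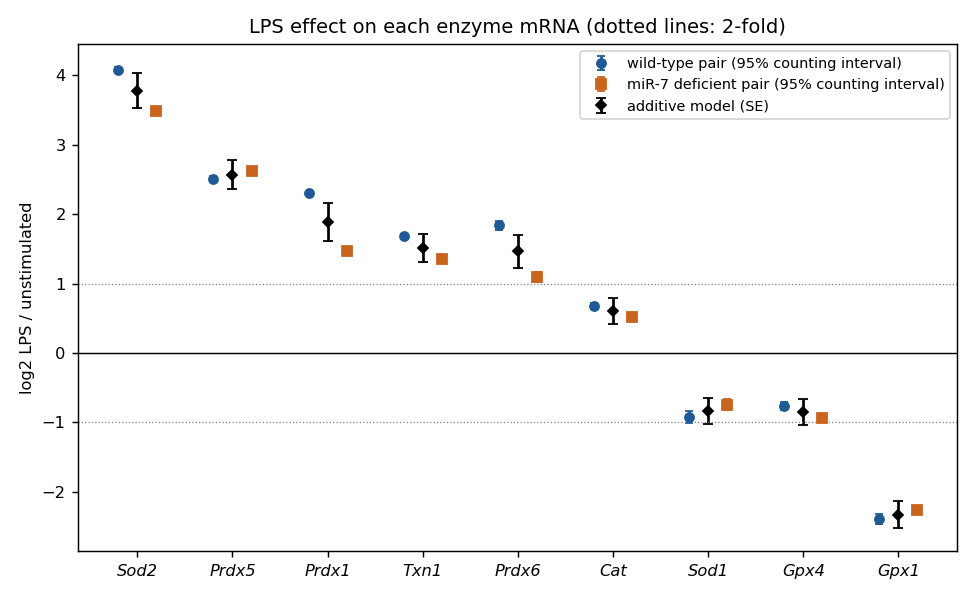
Log2 ratio of LPS to unstimulated for each mRNA in the wild-type pair (circles) and the miR-7 deficient pair (squares), with 95% intervals for counting error only, and the fitted effect of the additive model (diamonds, SE). Sod2 stands highest at 4.08 and 3.49, Gpx1 lowest at -2.40 and -2.27, and the genotypes lie farthest apart for Prdx1 at 2.30 and 1.47 and for Prdx6 at 1.84 and 1.09.

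Levels of different genes can be set side by side only per transcript length, and here counts per kilobase of union exon length were scaled to the same total over all genes in every library (a TPM-like level, written TPM). By this measure Prdx1 was first among the 9 in every library, at 2917 TPM in wild-type unstimulated, 10808 TPM in wild-type LPS, 3096 TPM in deficient unstimulated and 6676 TPM in deficient LPS cells. It made up 52.4% of the summed TPM of the 9 mRNAs in wild-type unstimulated, 71.9% in wild-type LPS, 51.1% in deficient unstimulated and 60.8% in deficient LPS cells. The order of the others changed. Gpx1 went from 643 to 91.7 TPM in the wild-type pair and from 891 to 144 TPM in the deficient pair, from rank 3 and 2 to rank 8 and 7. Prdx5 went from 269 to 1155 TPM and from 306 to 1475 TPM, from rank 6 to rank 3 in both. Txn1, at 720 to 1730 TPM, ranked 2 or 3 in all 4 libraries with this length. With principal transcript lengths, chosen after seeing the data, Gpx1 went from rank 2 in both genotypes to 9 and 8, and Prdx5 from rank 6 and 5 to rank 2 in both, while Txn1 ranked 4 in wild-type unstimulated cells and 3 in the others, and Prdx1 stayed first.

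Ratios within a library summarise the exchange, and their change with LPS does not depend on transcript length. The Prdx1 to Gpx1 ratio of TPM was 4.53 in wild-type unstimulated and 118 in wild-type LPS cells, and 3.48 and 46.2 in the deficient pair, a 26.0-fold and a 13.3-fold change. The Sod2 to Sod1 ratio changed 32.0-fold in the wild-type pair and 18.8-fold in the deficient pair. Its level depends on the length used, since the annotated exons of Sod1 join to 3970 bases while its principal transcript has 641 bases. It went from 0.360 to 11.5 and from 0.671 to 12.6 with union exons, and from 0.0994 to 3.18 and from 0.185 to 3.48 with the principal transcripts. Under both lengths Sod1 was above Sod2 in the unstimulated libraries and below it with LPS, and with the longest transcript the deficient unstimulated ratio was 1.15. The summed TPM of Prdx1, Prdx5 and Prdx6 was 3231 and 12082 in the wild-type pair and 3447 and 8225 in the deficient pair. That of Gpx1 and Gpx4 was 1090 and 289 in the wild-type pair and 1314 and 316 in the deficient pair.

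The genes that feed these enzymes were examined as lists. For this list and those below, the shares over all genes tested were 18% higher and 16.3% lower. Of 11 genes for glutathione supply and glutaredoxins, 8 rose, 1 fell and 2 were not called, with a median fitted log2 LPS effect of 1.64. Slc7a11, the cystine importer of the pathway, rose from 138 to 1698 CPM in the wild-type pair and from 352 to 1429 CPM in the deficient pair (adjusted p = 0.00351, edgeR). Its partner chain Slc3a2 rose from 224 to 809 CPM and from 277 to 740 CPM (adjusted p = 0.0024, edgeR). Chac1, which degrades glutathione rather than supplying it, also rose, from 0.257 to 1.75 CPM and from 0.102 to 1.42 CPM (adjusted p = 0.0128, edgeR). The gene that fell was Glrx5, a mitochondrial glutaredoxin of iron-sulfur cluster assembly. The median effect was 1.64 over this mixed list of 11 and -1.77 over the 3 tested glutathione peroxidases.

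Of 8 genes that supply NADPH, 3 rose, 2 fell and 3 were not called. Pgd, of the oxidative pentose phosphate pathway, rose from 865 to 1755 CPM and from 895 to 1758 CPM (adjusted p = 0.0115, edgeR), and G6pdx, the first enzyme of that pathway, rose as well. The malic enzyme Me1 rose from 10.9 to 47.0 CPM and from 11.1 to 39.7 CPM. Idh1, the cytosolic NADP-dependent isocitrate dehydrogenase, fell from 305 to 90.7 CPM and from 265 to 69.1 CPM (adjusted p = 0.001, edgeR), and the mitochondrial Idh2 fell too. Tkt, of the non-oxidative branch, was at 772 and 536 CPM in the wild-type pair and 766 and 546 CPM in the deficient pair, and was not called.

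Among 13 listed sources of superoxide, hydrogen peroxide and nitric oxide, 10 were tested, 3 rose and 7 were not called. Cybb, the catalytic subunit of the phagocyte NADPH oxidase, rose from 1613 to 4374 CPM and from 2688 to 4890 CPM (adjusted p = 0.0125, edgeR). Its partner Cyba, at 564 to 665 CPM, was not called. Nos2 rose (adjusted p = 0.00114, edgeR), at the levels given above. The oxidase Nox1 rose from 0.385 to 2.32 CPM and from 0.918 to 2.48 CPM (adjusted p = 0.0364, edgeR), and shares 399 exonic bases with the more abundant Cstf2 on the other strand.

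Of 13 listed regulators of these genes, 12 were tested, 6 rose, 2 fell and 4 were not called. Nfkb1, which encodes the p50 subunit of NF-kB and its precursor, rose from 81.7 to 376 CPM and from 121 to 424 CPM (adjusted p = 0.00101, edgeR). Maff, a small MAF partner of NRF2, rose from 6.88 to 49.1 CPM and from 12.5 to 32.7 CPM (adjusted p = 0.00757, edgeR). Nfe2l2, which encodes NRF2, was at 361 CPM in wild-type unstimulated, 742 CPM in wild-type LPS, 649 CPM in deficient unstimulated and 699 CPM in deficient LPS cells. The wild-type unstimulated library was the low one, and Nfe2l2 was not called (adjusted p = 0.156, edgeR). Keap1 rose from 46.85 to 93.3 CPM in the wild-type pair and from 30.6 to 133 CPM in the deficient pair (adjusted p = 0.00992, edgeR). It shares 510 exonic bases with an antisense transcript. The others that rose were Mafg, Mafk and Rela. Those that fell were Bach1, a repressor at antioxidant response elements, and Foxo3, a forkhead factor.

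**Figure D3:**
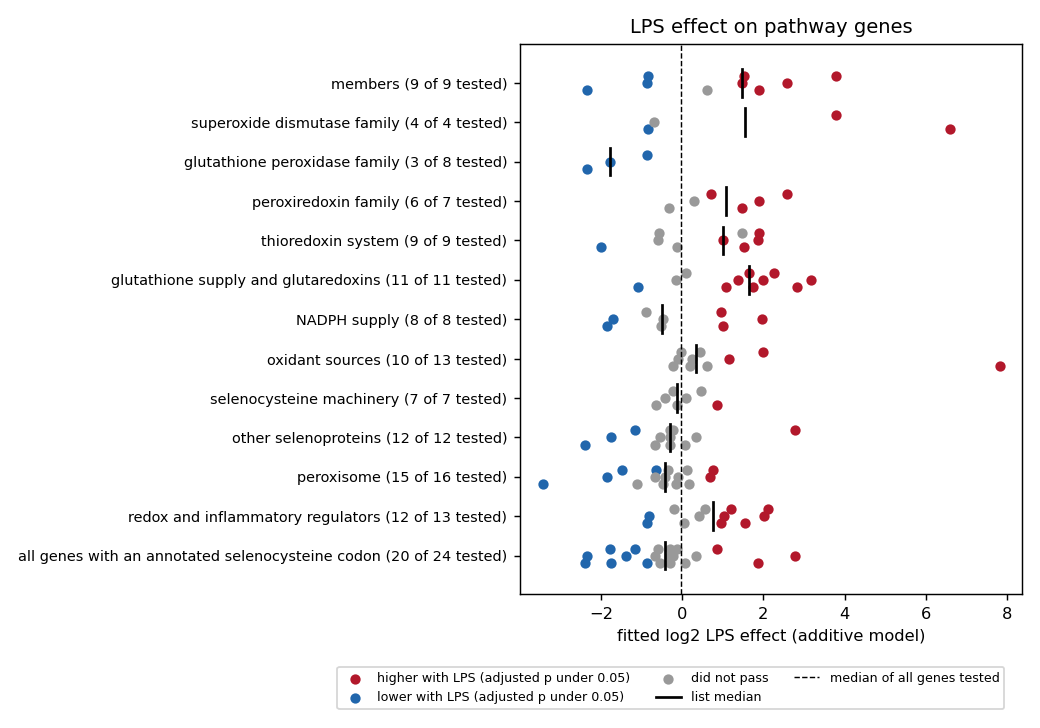
Fitted log2 LPS effect (additive model) of every tested gene in each list, coloured by whether it rose, fell or did not pass the test, with the list median as a bar and the median of all genes tested as a dashed line. The mixed list of glutathione supply genes and glutaredoxins centres at 1.64 and the 3 glutathione peroxidases at -1.77.

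Motif matches were counted in the RefSeq promoter windows, 250 bases before to 50 after the start, of 8 of the 9 genes (11 windows, 4 of them of Gpx4). Prdx6 had no entry. The antioxidant response element core was found on either strand in Prdx1 and Sod1, against 12.4% of 32851 mouse promoter windows. The NF-kB motif was found in Sod2, Cat, Gpx1 and Prdx1, against 8.46% of windows. These sets crossed the LPS response: an NF-kB match stood before Sod2 and Prdx1, which rose, before Gpx1, which fell, and before Cat, which was not called. The antioxidant core stood before Prdx1, which rose, and Sod1, which fell. GC boxes were in 10 of the 11 windows, against 35.7% of all, and TATAAA was in those of Prdx1, Sod1 and Txn1, against 13.6%. Some of the Gpx4 windows overlap and hold the same GC boxes, so the GC box count is not over independent windows. In the 250 bases before the start alone, the GC box was left in 9 windows and the other counts were the same.

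**Figure D4:**
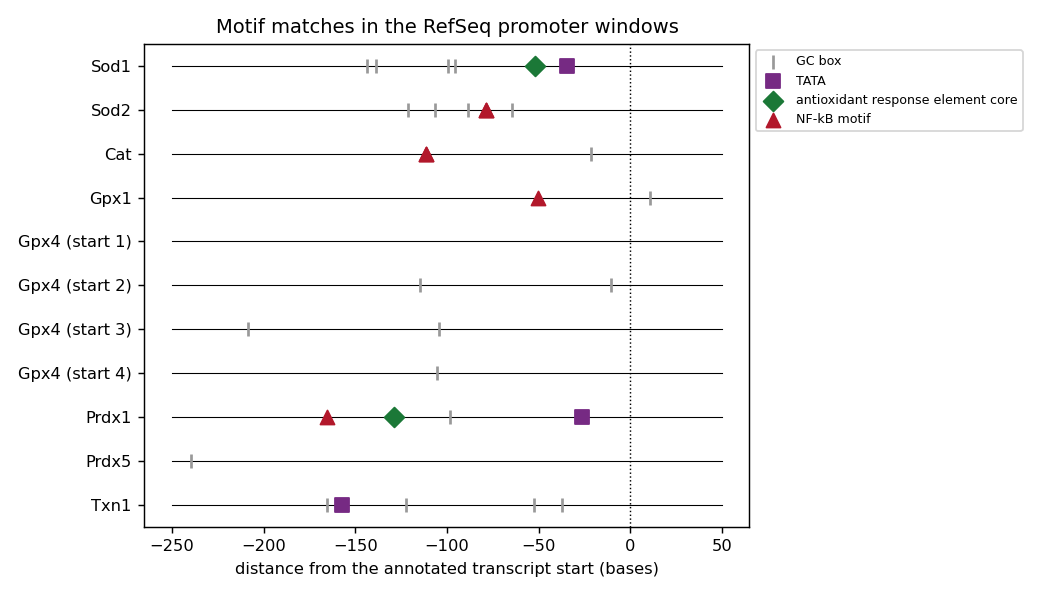
Position of motif matches, in bases from the annotated transcript start, in the RefSeq promoter window of each gene, with the 4 starts of Gpx4 on separate lines. Sod2 shows the NF-kB match at -83 to -74 among 4 GC boxes, and Prdx1 shows an NF-kB match, an antioxidant response element core and a TATAAA in turn.

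Between genotypes, 0 of the 9 were called in the additive model (edgeR). There 0.55% of all genes tested were called, 0.385% higher and 0.165% lower in deficient cells. At an unadjusted p under 0.05, 7.6% of genes passed, and Gpx1 was the one of the 9 that did. Gpx1 was higher in deficient cells in both conditions, with a fitted log2 difference of 0.53 ± 0.18 (adjusted p = 0.529, edgeR). The adjusted p of the other 8 ranged from 0.868 to 0.993. DESeq2's Wald test called 0 of the 9 as well.

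The sequences of miR-7 and of its seed matches are given to show where the miR-7 seed has matches. Mature sequences are from RefSeq (GRCm38.p6), with the seed, bases 2 to 8, in capitals, and the forms 7a and 7b share it.
mmu-miR-7a-5p: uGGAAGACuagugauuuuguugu
mmu-miR-7b-5p: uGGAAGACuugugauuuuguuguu
The longest annotated 3′ UTR (GENCODE M21) of 3 of the 9 genes held a match, shown in capitals with 10 bases on each side.
Cat, 8mer at UTR base 556: cttgcatcatGTCTTCCAaaagtaactt
Gpx1, 7mer-A1 at UTR base 52: ggggggcggtTCTTCCAtgatggtgtt
Prdx1, 7mer-A1 at UTR base 133: ggatagccttTCTTCCActattggtaa
An 8mer pairs with seed bases 2 to 8 and is followed by an A, and a 7mer-A1 pairs with bases 2 to 7 and is followed by an A. Of 11314 tested genes with an annotated 3′ UTR, 28.5% held a match of some kind and 4.58% an 8mer.

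The 3 genes with a match did not share a direction. In the unstimulated pair, Gpx1 was 1.38-fold higher in the deficient library (267 against 367 CPM), Prdx1 was within 1.05-fold (2555 against 2693 CPM) and Cat was 1.04-fold lower (311 against 298 CPM). In the LPS pair, Gpx1 was 1.51-fold higher in the deficient library (50.7 against 76.3 CPM), Cat was 1.17-fold lower (499 against 428 CPM) and Prdx1 was 1.69-fold lower (12609 against 7454 CPM). Sod2, Gpx1 and Prdx5 were the genes of the 9 whose counting intervals lay above no change in both genotype pairs, as for 13.2% of all genes tested. Sod1, Cat and Gpx4 lay below it in both pairs, as for 11.5%. These intervals leave out the choice of scaling, and some of the differences were small beside it. In the LPS pair, Sod2 was at log2 0.03 (interval 0.01 to 0.04) with TMM and 0.01 with DESeq2 size factors. Sod1 in that pair was at log2 -0.11 with TMM and -0.03 with total counts.

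In neither genotype pair was any of the 9 beyond 2-fold. Over all genes, 2.82% were higher and 1.41% lower by that rule in the unstimulated pair, and 2.58% higher and 3.04% lower in the LPS pair. Among unstimulated libraries Sod2 differed most, 1.53-fold higher in the deficient one (log2 0.61, 95% counting interval 0.55 to 0.67). With LPS, Prdx1 (log2 -0.76, interval -0.77 to -0.75) and Prdx6 (log2 -0.75, interval -0.80 to -0.70) were lower in the deficient library. Both passed a limit of 1.5-fold, which 872 of the 12730 genes tested passed downward in this pair.

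**Figure D5:**
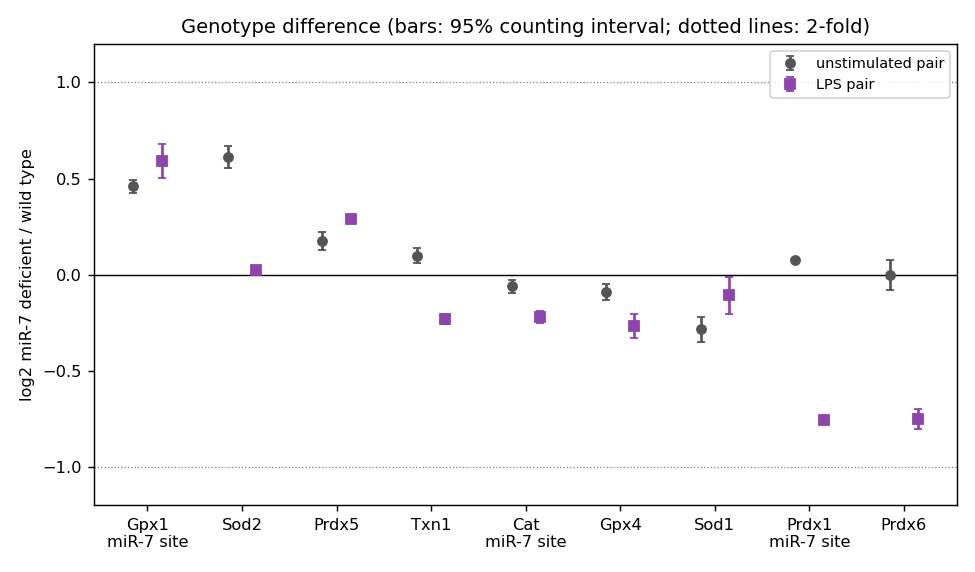
Log2 ratio of miR-7 deficient to wild type for each mRNA in the unstimulated pair (circles) and the LPS pair (squares), with 95% intervals for counting error only and the genes with a miR-7 seed match marked. All points lie inside the dotted 2-fold lines, and Prdx1 and Prdx6 in the LPS pair are the lowest, at -0.76 and -0.75.

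The LPS effects themselves differed between genotypes by less than 2-fold for all 9 genes, where 2.26% of tested genes differed upward and 3.82% downward beyond that limit. The deficient pair had the smaller increase for Prdx1 (difference of log2 LPS effects -0.83, interval -0.85 to -0.82), Prdx6 (-0.75, interval -0.84 to -0.66), Sod2 (-0.59, interval -0.65 to -0.53) and Txn1 (-0.33, interval -0.38 to -0.28). For Prdx5 it was 0.11 (interval 0.06 to 0.16), and for Gpx1 0.13 (interval 0.04 to 0.22). For Prdx1 and Prdx6 the LPS libraries differed between genotypes while the unstimulated ones were within 1.05-fold. For Sod2 it was the unstimulated libraries that differed, and the LPS ones were within 1.02-fold. With 1 library per group, a difference between the genotypes and one between the cultures or libraries cannot be told apart.

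Genes whose centred log2(CPM + 1) values lay nearest to each mRNA over the 4 libraries were named among 7858 protein-coding genes outside the lists, with a mean of at least 10 CPM. For Sod2 they were Ccrl2, Smpdl3b and Tnfaip3. Ccrl2, an atypical chemokine receptor, ran from 26.5 to 487 CPM in the wild-type pair and from 39.6 to 483 CPM in the deficient pair, a distance of 0.10 on the log2 scale. The nearest to Prdx1 were Ago3, Slc31a1 and Mxd1, and to Prdx5 Slc31a2, Samsn1 and Scarf1. Slc31a1, the plasma membrane copper importer, was at 89.2 and 497 CPM and at 93.9 and 287 CPM. Gpx1 had Dhcr7, a late enzyme of cholesterol synthesis, with Phactr2 and Slc16a7. The nearest to Prdx6 were Gna13, Pigf and Mfap3l, to Txn1 they included Kat2b and Zcchc2, and to Cat Dnaja2 and Ints12. Sod1 had Rpa1, Prr14 and Erp29, and Gpx4 had Atad2, Xrcc1 and Cipc. With a pseudocount of 5, 11 of the 27 neighbours were kept.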

How the data were processed

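The authors deposited 1 table of raw counts per gene for each library, whole numbers with no normalization. Per the series design text, poly(A) RNA was sequenced on a HiSeq 2000, read out with Casava 1.8.2, trimmed with Cutadapt and aligned with TopHat 2.0.13 and Bowtie2, with exon annotation from Partek. The submitters' processing notes name HTSeq and mm8. Neither the strand setting nor the handling of reads with several positions is stated there. Of 52550 IDs, 99.7% matched GENCODE M21 without the version, and printed coordinates are that annotation's (GRCm38), not the build of the files. The 37 mitochondrial IDs held 0 counts. The genes and lists were chosen with earlier results of these data known.

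From the deposited counts, genes with at least 1 CPM in 2 or more libraries were tested with edgeR 4.0.16 (limma 3.58.1, R 4.3.3): glmQLFit and glmQLFTest, TMM factors of 1.15, 0.846, 1.16 and 0.89, with genotype and LPS as additive terms. The interaction is the 1 residual degree of freedom, and p-values measure the spread between these libraries, which may be technical. The biological coefficient of variation was 0.247. SEs are the log2 effect over the square root of F. Pairs of libraries were compared by exact Clopper-Pearson 95% intervals, and the pairs' LPS ratios by their quotient, with 0.5 counts added and a normal interval. Intervals and the floor of 3 counts cover counting error only. DESeq2 1.42.0 was an alternative. Near copies were found with blastn 2.17.0 (at least 85% identity over 50% of the coding sequence). Scripts were tested on simulated data. Named genes were all 9 members and, from each list, the 2 of highest level and the 2 of largest LPS effect; others were named after their values were seen. A few genes that this rule or the lists name are not reported here.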

Additional observations from a re-analysis of the deposited data

How the results depend on the processing

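No paired analysis was possible because each group has 1 library and the labels give no shared replicate numbers. No called value changed direction under any alternative run. The Prdx6 difference between unstimulated genotypes, within counting error, went from log2 -0.0025 to 0.0073 with total counts, and the Sod2 to Sod1 ratio of deficient unstimulated cells passed 1 with the longest transcript. Of the alternatives for single genes, 357 left the result as it was, called or not called, 17 gained a call and 13 lost it. The 357 include all genotype fits of the 9 genes, which were called in no run. They also include pair runs with no filter, which repeat the same ratio and could not change. Runs with copies added left the counts of genes without a pseudogene copy as they were. The 1.5-fold limit also repeats the same ratio under a looser rule, so it could add calls, some of them among the 17, but not lose any. Sod2, Gpx1, Prdx5 and Txn1 kept their LPS calls in the fitted model under all alternatives. Leaving out each library in turn, with LPS alone in the model and the lone library of an arm assumed to vary like the other arm, gave 3 to 5 of the 9 genes called higher against 5, and 1 to 2 called lower against 3. Over all genes it gave 1088 to 1744 higher against 2297, and 588 to 1464 lower against 2075. Without the wild-type unstimulated library 3 were higher and 1 lower, and 1 was also lower without either deficient library. Fewer samples remain in these fits.

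Scaling by total counts gave 3840 genes lower with LPS. In pairs it gave 2843 lower against 1693 for wild type and 2390 against 1496 for deficient, with 3 members lower against 1 in each, and 3 members higher against 5 in the deficient pair. A 1.5-fold limit gave 2896 higher against 1888 and 2755 lower in the wild-type pair, and 2402 against 1588 and 2531 in the deficient pair, with 3 members lower in each.

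For genotype, 49 genes were higher in the fit, against 27 with DESeq2 size factors, 31 with total counts, 18 with no filter, 147 with DESeq2's Wald test and 0 with genotype alone. Lower were 21, against 12 with no filter, 81 with the Wald test and 0 with genotype alone. In the unstimulated pair 359 were higher and 179 lower, against 884 and 442 with no filter and 823 and 419 at 1.5-fold. In the LPS pair 329 were higher and 387 lower, against 642 and 798 with no filter and 794 and 872 at 1.5-fold, with 2 members lower against 0. The LPS effects differed upward for 288 genes and downward for 486, against 518 and 811 with no filter and 773 and 1138 at 1.5-fold, with 2 members downward against 0. The cause of these shifts was not tested.

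The Sod2 to Sod1 ratio, in the order wild-type unstimulated, wild-type LPS, deficient unstimulated and deficient LPS, was 0.615, 19.7, 1.15 and 21.6 with the longest transcript. With the principal transcript, an alternative chosen after seeing the data, it was 0.0994, 3.18, 0.185 and 3.48. Of the 27 pattern neighbours, 11 were shared with a pseudocount of 5. Adding the counts of pseudogene copies changed no call of the 9 genes. Only Sod1, Gpx4, Prdx1 and Txn1 had such copies, with at most 1.28% of the gene's own counts, so this run could hardly change a call. A comparison of protein sequences was not run.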
